A study of Mus musculus with 6 samples.

Results

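Genes of the cytosolic heat shock and chaperonin system were examined in CD4+CD25+ regulatory T cells (Treg) of mice. The set was a list of 38 genes that also held 4 mitochondrial chaperones. For each gene the brightest probe set whose annotation gave that gene as its only symbol was read. Of the 38 genes, 35 had such a probe set and 32 were bright enough to be tested, of 12394 genes with a probe set and 8676 genes tested on the array. RNA was measured on 6 arrays, 3 from p300-deleted and 3 from control samples, with 1 array per sample.

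The p300-deleted samples carried the genotype fl-p300/Foxp3cre, in which the gene of the acetyltransferase p300 is floxed and the Cre recombinase is driven from Foxp3. The controls were Foxp3cre, so both groups carried the Cre, although the control titles read WT. All mice were C57Bl/6, and no age is given in the sources used here. The samples of a group are described as independent but not tied to individual mice, so a p-value here reflects the variation among these samples, part of which may be technical. The study's title frames the comparison as one of p300 function in Foxp3+ Treg.

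Chaperones bind unfolded or partly folded proteins and help them reach or keep their native shape. In the cytosol, J-domain proteins deliver clients to HSP70, nucleotide exchange factors release them, the adaptor Stip1 passes some on to HSP90, and the ring-shaped chaperonin CCT folds actin, tubulin and other proteins. Heat shock factors, above all HSF1, bind heat shock elements in the promoters of many of these genes and raise their transcription when unfolded proteins accumulate. In T cells, chaperone demand follows protein synthesis, activation and division, and HSP90 clients include kinases of T cell signalling.

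Cells were separated magnetically by CD4 and CD25, and CD25 is also carried by activated T cells that are not Treg. The label was checked against 9 T cell markers, of which 8 lay above 0 and only Foxp3 below. Cd4, the coreceptor used in the separation, was at 0.68 (limma adjusted p = 0.0746) and Cd2, an adhesion receptor, at 0.49 (adjusted p = 0.0511). Cd3g was at 0.29 (limma adjusted p = 0.178) and Ctla4, an inhibitory receptor abundant in Treg, at 0.30 (adjusted p = 0.287). Il2ra, which encodes CD25, read 9.16, 9.09 and 9.17 on the log2 scale in the p300-deleted samples, against 8.99, 8.62 and 9.07 in the controls, while Foxp3, the lineage factor of Treg, read 2.57, 3.04 and 3.15 against 9.63, 9.35 and 9.39. The brightest probe set of Foxp3 fell by 6.53 (SE 0.16, limma adjusted p = 4.36e-07) and was near background in every array labelled p300-deleted. By that probe set, the defining marker of the labelled cell type was not seen in these arrays. No other probe set of Foxp3 was read here, and the cause of the fall was not tested. These values do not settle whether the cells were Treg. Il2ra differed by 0.25 (limma adjusted p = 0.377). The deletion itself was not checked, because the annotation names no probe set with Ep300 as its only symbol. Array medians were 5.38 to 5.46. The mean of the 18S ribosomal RNA controls was 7.74 to 9.47 with p300 deleted, against 5.68 to 8.69. For the Gapdh controls, the 3' probe set minus the 5' one, a sign of RNA quality, was 0.057 to 0.14 with p300 deleted, against 0.21 to 0.59 in controls, with the highest value in control 2. The same value for actin overlapped between groups, at 0.29 to 0.43 with p300 deleted, against 0.30 to 0.46. Markers of other cells differed too. In limma (adjusted p under 0.05 over all genes), 5 of 8 plasma cell markers and 6 of 9 mast cell and basophil markers rose, and of these 0 and 0 passed without control 1, and 1 to 4 of each list without any other single array. Of 9 myeloid markers 0 passed, while 9 lay above 0 and 6 of them had an unadjusted p under 0.05, and of 9 NK and cytotoxic markers 1 rose. Of 5 B cell markers 1 fell. Without p300-deleted 2, control 1 or control 2 neither of these lists had a call, the NK list had 0 without p300-deleted 1 and 2 without p300-deleted 3, and the B cell list had 0 without p300-deleted 3. Pax5, a defining factor of B cells, was too dim to test. List means relative to the mean of all 6 arrays were 0.20 to 0.70 against -0.49 to -0.37 for plasma cell markers, and 0.017 to 1.65 against -1.18 to -0.26 for myeloid markers. Arrays of bulk samples cannot tell fewer cells of a type from less RNA per cell.

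Promoters of the set were searched for heat shock elements, because these are the sequences through which the pathway is switched on. RefSeq promoter windows of assembly GRCm38.p6, running from 250 bases before to 50 bases after a start site, were listed for 31 of the 38 genes in 40 windows. Windows of Cct4, Hsf1, Hsp90aa1, Hsp90ab1, Hspa8, Hspa9 and St13 were not used here. Both strands were searched. The short element was read as GAANNTTC or TTCNNGAA, and the long element, with 1 unit more, as GAANNTTC followed directly by NNGAA or TTCNNGAA followed directly by NNTTC, where N is any base. Both long forms are reverse complements of each other, each short form is its own reverse complement, and every long element contains both short ones. The short element was present in 17 of the 40 windows, belonging to 15 genes, against 15.1% of 32851 windows of all genes. The long element was present in 7 of 40 windows, belonging to Chordc1, Dnajb6, Hspd1, Hspe1 and Hsph1, against 0.603% of all windows. These 7 windows are not separate sites. Dnajb6 and Hsph1 each have overlapping windows with the same element, and a window of Hspd1 shares its element with that of Hspe1. A match describes letters in these windows and is not a shown binding site.

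The windows with the long element are printed first, 5' to 3' on the strand of the gene, with every short or long element in capitals. Where a gene had several windows with the element, 1 is shown.
Hspe1 (chr1:55087898-55088197, plus strand): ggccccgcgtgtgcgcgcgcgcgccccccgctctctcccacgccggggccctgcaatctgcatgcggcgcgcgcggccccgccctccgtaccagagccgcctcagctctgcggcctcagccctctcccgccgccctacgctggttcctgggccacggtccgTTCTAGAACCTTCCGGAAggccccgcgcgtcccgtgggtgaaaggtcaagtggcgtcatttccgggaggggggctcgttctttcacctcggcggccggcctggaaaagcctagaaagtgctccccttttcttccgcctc
Hsph1 (chr5:149636287-149636586, minus strand): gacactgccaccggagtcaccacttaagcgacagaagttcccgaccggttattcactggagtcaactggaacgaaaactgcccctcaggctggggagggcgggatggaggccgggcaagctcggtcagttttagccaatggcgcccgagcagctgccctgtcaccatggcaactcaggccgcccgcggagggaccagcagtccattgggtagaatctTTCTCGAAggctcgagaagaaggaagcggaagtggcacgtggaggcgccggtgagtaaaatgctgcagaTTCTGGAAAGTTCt
Chordc1 (chr9:18292017-18292316, plus strand): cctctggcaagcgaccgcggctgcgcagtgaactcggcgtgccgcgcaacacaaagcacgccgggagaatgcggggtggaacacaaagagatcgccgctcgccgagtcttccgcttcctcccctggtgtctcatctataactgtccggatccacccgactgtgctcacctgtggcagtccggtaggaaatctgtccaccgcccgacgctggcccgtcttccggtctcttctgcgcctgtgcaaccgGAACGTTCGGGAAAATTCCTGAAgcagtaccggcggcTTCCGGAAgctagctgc
Dnajb6 (chr5:29735648-29735947, plus strand): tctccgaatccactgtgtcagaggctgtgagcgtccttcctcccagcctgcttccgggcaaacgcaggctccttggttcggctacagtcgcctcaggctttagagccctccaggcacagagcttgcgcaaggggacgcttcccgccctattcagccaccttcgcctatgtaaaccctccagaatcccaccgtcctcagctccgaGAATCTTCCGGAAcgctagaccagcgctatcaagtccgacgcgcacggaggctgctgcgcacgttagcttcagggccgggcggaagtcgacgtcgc
The window of Hspd1 that holds the element, on the minus strand, shares 285 bases with that of Hspe1 on the plus strand. From the starts of these windows Hspd1 and Hspe1, the mitochondrial HSP60 and HSP10, are transcribed away from each other across 1 shared element. It began 89 bases before the listed start of Hspe1 and, read on the other strand, 144 bases before this start of Hspd1. A further listed window of Hspd1 shares 4 bases with that of Hspe1 and holds no element, so the arrangement applies to 1 listed start of Hspd1 only. In Dnajb6 the element began 46 bases before the start of the printed window and 127 bases before a second listed start, in Chordc1 the run of elements spanned the start, and in Hsph1 the long element lay after it.

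The inducible HSP70 genes Hspa1a and Hspa1b carry a short element only, at 104 bases before the start in both, and their windows are equal at 296 of 300 bases. The window of Hspa1a stands for the pair.
Hspa1a (chr17:34972107-34972406, minus strand): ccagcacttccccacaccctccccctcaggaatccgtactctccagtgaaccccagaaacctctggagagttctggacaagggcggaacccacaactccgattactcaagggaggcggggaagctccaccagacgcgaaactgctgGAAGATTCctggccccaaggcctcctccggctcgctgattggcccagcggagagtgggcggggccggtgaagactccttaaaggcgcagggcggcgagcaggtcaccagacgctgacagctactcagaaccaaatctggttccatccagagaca

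None of the 32 tested chaperone genes passed the test between p300-deleted and control cells in limma at an adjusted p under 0.05, where 1.72% of all genes tested were called (0.991% higher and 0.726% lower). The lowest adjusted p was 0.198. At an unadjusted p under 0.05 there were 4 of 32, 1 higher and 3 lower, against 18.1% of all genes (8.21% higher and 9.9% lower). The 3 arrays of each group did not overlap for 6 of 32, with 2 higher and 4 lower, against 23.7% of all genes (10.5% higher and 13.2% lower). These shares are near those of all genes. The count at an unadjusted p under 0.05 was 0 to 5 when single arrays were left out, with 0 without p300-deleted 2, 1 without p300-deleted 3, 2 without p300-deleted 1 or control 1, and 5, all lower, without control 2. It was 10 of 32 with array weights, where 29% of all genes had such a p. Differences are given throughout as the p300-deleted mean less the control mean, in log2 units. Their median over the members was -0.056, beside -0.026 over all genes, with 12 above and 20 below 0, where 45% of all genes lay above 0 and 55% below. With the probe set of largest spread per gene in place of the brightest, the members' median was 0.011.

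Absolute differences were under 0.2 for 25 of 32 members, and 64.9% of all genes lay under that size. The intervals of the fit cover the brightest probe set of each gene and do not bound the gene's difference. Further probe sets lay outside the interval of their gene for Cct3 (0.59), Dnajb6 (0.68), Hspa4 (0.39) and Hsp90aa1 (-0.66 and 0.36), among others. The 95% interval lay inside 0.5 on either side of 0 for 27 of 32 members (84.4%, beside 62.7% of all genes) and inside 1, or 2-fold, for 32 of 32. The members' standard errors (SE) ran from 0.095 to 0.18 with a median of 0.11, beside a median of 0.13 over all genes. Replicates of the members spread more among controls than among p300-deleted arrays in 25 of 32 cases, with median SDs of 0.14 and 0.086 (n = 3 each), and all genes showed the same with 70% of cases.

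**Figure D1:**
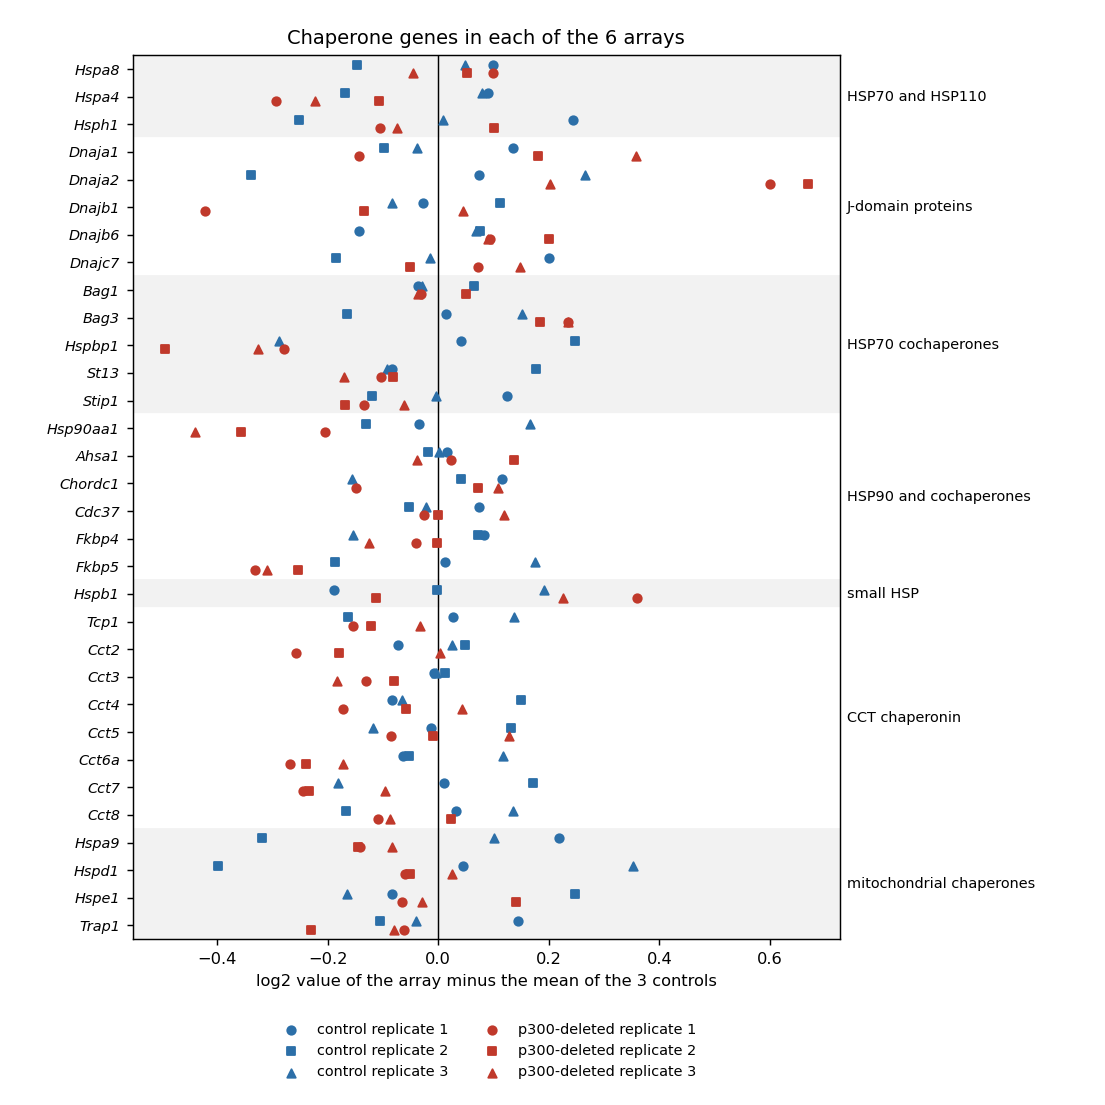
Each row is a tested chaperone gene, grouped by role, and each point is the log2 value of 1 array minus the mean of the 3 controls (blue controls, red p300-deleted, shape by replicate number). Red and blue points intermingle in most rows, and for 6 of 32 genes the groups do not overlap.

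**Figure D2:**
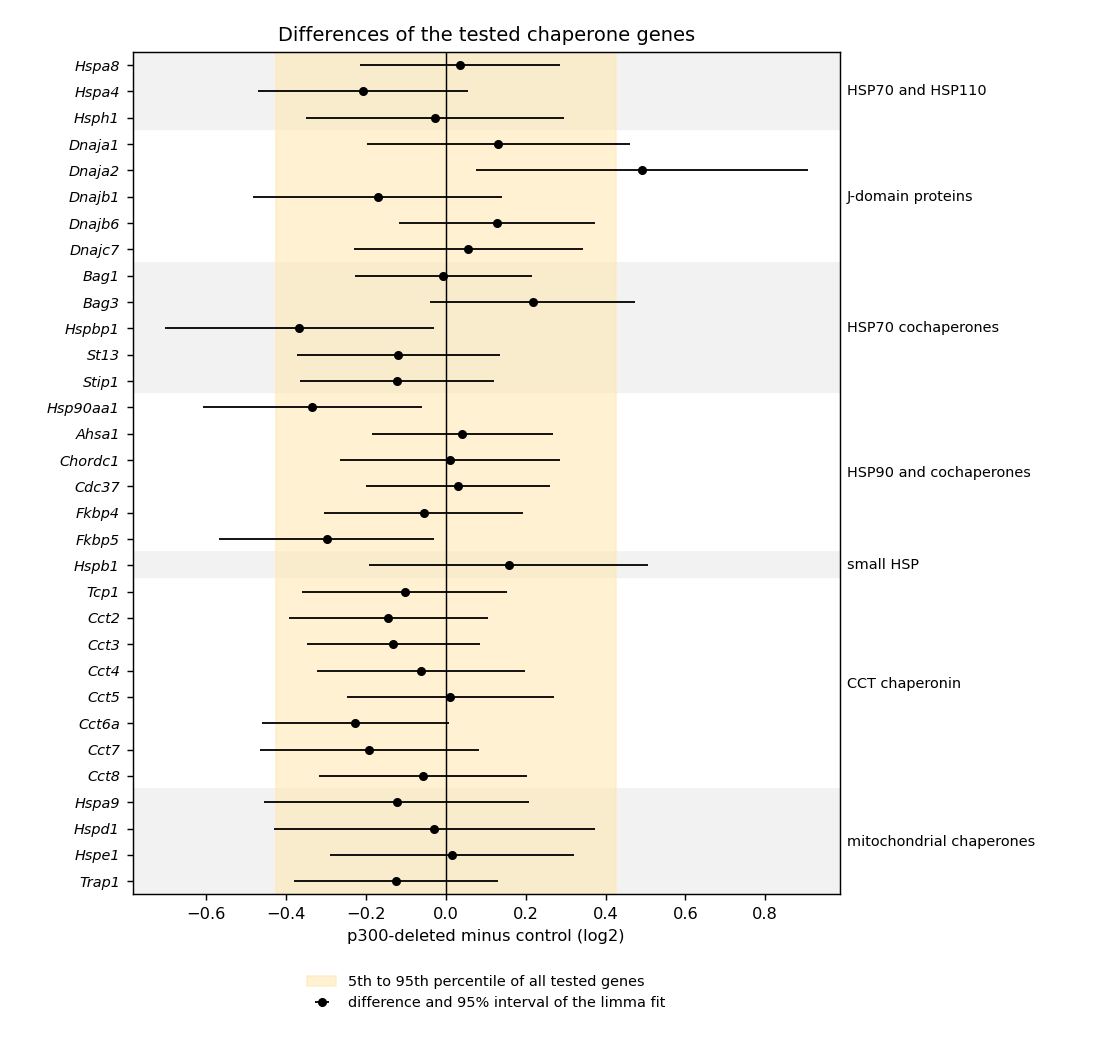
Points are p300-deleted minus control differences of the brightest probe set on the log2 scale and bars are 95% intervals of the limma fit. The 5th to 95th percentile of all tested genes is shaded (-0.43 to 0.43). The intervals of Dnaja2, Hspbp1, Hsp90aa1 and Fkbp5 leave out 0 and the other 28 include it.

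The heat shock factors gave the least to read. Hsf1, the main stress-responsive factor, had no probe set of its own. Hsf2, a factor linked to development and proteotoxic stress, read 2.57, 2.79 and 3.30 in the p300-deleted samples, against 2.42, 2.27 and 2.67 in the controls. These values were below the lower quartile of the array on 5 of 6 arrays, and the gene was too dim to test. With no filter on dim genes its difference was 0.43 (SE 0.19, limma adjusted p = 0.328).

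Inducible HSP70 was dim in both groups. Hspa1a, the stress-inducible HSP70, read 3.13, 2.84 and 2.90 in the p300-deleted samples, against 2.83, 2.66 and 3.23 in the controls, below the lower quartile on 6 of 6 arrays, where quartiles were 3.26 to 3.31. The probe sets for bacterial transcripts, included as controls, had medians of 2.18 to 2.34. The groups overlapped, with a difference of 0.048 (SE 0.16). Hspa1b, its near-identical neighbour, read 3.35, 3.44 and 3.44 against 3.80, 3.74 and 3.58. The p300-deleted arrays all lay below the controls, but within a dim range where differences are compressed, and with no filter the difference was -0.30 (SE 0.11, limma adjusted p = 0.228). In further, dimmer probe sets of Hspa1b, at -0.19 and -0.11, the groups overlapped. Probe sets of Hspa1a and Hspa1b may bind both transcripts, so the split between them is uncertain.

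Constitutive HSP70 was bright, and none of its probe sets passed the test. Hspa8, the constitutive cytosolic HSP70 that also strips clathrin coats, read 12.70, 12.65 and 12.55 in the p300-deleted samples, against 12.70, 12.45 and 12.65 in the controls. The arrays of both groups intermingled, and the difference was 0.036 with a 95% interval from -0.21 to 0.29. Further probe sets of Hspa8 were at -0.23 (SE 0.12), -0.14 (SE 0.10) and 0.29, so its direction depends on the probe set. Hspa4, an HSP110-type exchange factor of HSP70, read 9.41, 9.59 and 9.48 against 9.79, 9.53 and 9.78. Control 2 fell among the p300-deleted arrays, and the difference of -0.21 (SE 0.12) had an adjusted p of 0.389 in limma. Without control 2 the difference of Hspa4 was -0.29. Hsph1, the HSP110 that releases clients from HSP70 and is itself heat-inducible, was at -0.027 (SE 0.14).

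Among the J-domain proteins, which bring clients to HSP70 and start its ATPase, Dnaja2 had the largest difference of all members. Dnaja2 read 8.13, 8.19 and 7.73 in the p300-deleted samples, against 7.60, 7.19 and 7.79 in the controls. Control 2 was the lowest array and control 3 lay above p300-deleted 3, so the groups overlapped. The difference was 0.49, or 1.40-fold, with SE 0.18, an unadjusted p of 0.0259 and an adjusted p of 0.212 in limma. It was 0.32 without control 2 and 0.29 with a covariate for 18S, each over 1.5 times smaller. Over 16 alternatives it ran from 0.25 to 0.63, with a limma unadjusted p under 0.05 in 12 and an adjusted p under 0.05 in 0. A second, dimmer probe set of Dnaja2 was at 0.017 (SE 0.20).

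Dnajb6, a J-domain protein known for holding back protein aggregation, read 9.49, 9.60 and 9.49 against 9.26, 9.48 and 9.47. The p300-deleted arrays lay above all controls by a narrow margin, and the difference was 0.13 (SE 0.11, limma adjusted p = 0.590). Dnaja1, a farnesylated partner of Hspa8, was at 0.13 (SE 0.14), and Dnajc7, which also binds HSP90, at 0.057 (SE 0.13). Dnajb1, the heat-inducible HSP40, was at -0.17 (SE 0.14), and its arrays overlapped. Of the 5 J-domain genes 4 had values above 0 and 0 passed (1 at an unadjusted p under 0.05).

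Among the HSP70 cochaperones, Hspbp1, an exchange factor that also restrains Stub1-linked ubiquitination, read 7.62, 7.40 and 7.57 in the p300-deleted samples, against 7.94, 8.15 and 7.61 in the controls. Only control 3 touched the p300-deleted range. The difference was -0.37 (SE 0.15, unadjusted p = 0.0365, limma adjusted p = 0.243). It passed under 1 of 16 alternatives, array weights, at -0.41 (adjusted p = 0.0452, range over the alternatives 0.0452 to 0.706). The difference was -0.24 without control 2 and -0.15 with the 18S covariate, and it ran from -0.51 to -0.15 over the 16 alternatives.

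Bag3, which couples HSP70 to selective autophagy and is a known HSF1 target, read 7.00, 6.95 and 7.00 against 6.78, 6.60 and 6.92. The groups did not overlap, and the difference was 0.22 (SE 0.11, limma adjusted p = 0.355). Without control 2 it was 0.13 and with the 18S covariate 0.14, and it ran from 0.13 to 0.29 over the alternatives. Bag1, an exchange factor that links HSP70 to the proteasome, was at -0.0067 (SE 0.097), with a 95% interval from -0.23 to 0.21. The adaptors St13 and Stip1, which act between HSP70 and HSP90, were at -0.12 (SE 0.11) and -0.12 (SE 0.11).

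In the HSP90 group, Hsp90aa1, the inducible HSP90 alpha, read 10.40, 10.25 and 10.17 in the p300-deleted samples, against 10.57, 10.48 and 10.77 in the controls. All p300-deleted arrays lay below all controls. The difference was -0.33, or 1.26-fold lower, with SE 0.12, an unadjusted p of 0.0222 and an adjusted p of 0.198 in limma. Averaging its probe sets gave -0.21, and without control 2 the brightest was at -0.40. Further probe sets of this gene gave -0.66 (SE 0.22) and 0.36 (SE 0.31), so the direction depends on the probe set. Hsp90ab1, the constitutive HSP90 beta, had no probe set of its own.

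Fkbp5, an HSP90 cochaperone that dampens glucocorticoid receptor signalling and is itself induced by glucocorticoids, read 8.05, 8.13 and 8.07 against 8.39, 8.19 and 8.55. The groups did not overlap, and the 3 p300-deleted arrays lay close together. The difference was -0.30 (SE 0.12, unadjusted p = 0.0337, limma adjusted p = 0.236). A second probe set of Fkbp5 was at -0.12. Without control 2 the brightest probe set of Fkbp5 was at -0.39 and the second at -0.37. Fkbp4, the related cochaperone that favours receptor activity, was at -0.055 (SE 0.11). Among 8 tested glucocorticoid targets 1 rose, Klf9, a Krüppel-like factor, by 0.48 (SE 0.093, limma adjusted p = 0.0467), and 0 fell. In the 6 fits without 1 array none rose, and 1 fell without p300-deleted 1. Of the 8, 6 lay above 0, with a median of 0.20 (0.095 without control 3 and 0.35 without control 1). Ddit4, an inhibitor of mTOR signalling, was at 0.46 (adjusted p = 0.246), Sgk1, a kinase, at -0.49 (adjusted p = 0.140) and Zbtb16, a zinc finger factor, at -0.97 (adjusted p = 0.188).

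The brightest probe sets of the remaining tested HSP90 cochaperones lay within 0.05 of 0. Ahsa1, the activator of the HSP90 ATPase, was at 0.041 (SE 0.099), Chordc1, a CHORD-domain partner, at 0.010 (SE 0.12) and Cdc37, which loads kinases onto HSP90, at 0.031 (SE 0.10). Ptges3, the p23 cochaperone, was read only by probe sets shared with its pseudogene, and these were at -0.051 and 0.16. Hspb1, the small heat shock protein HSP27, read 5.95, 5.48 and 5.82 against 5.41, 5.59 and 5.79. The arrays overlapped across the whole range, with a difference of 0.16 (SE 0.15).

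The CCT chaperonin is a ring of 8 different subunits, and all 8 were measured, each at a mean of over 10 on the log2 scale. Of the 8 subunits 0 passed in limma, 0 had an unadjusted p under 0.05 and 7 lay below 0, with a median of -0.12 and a range from -0.23 to 0.011. The count below 0 was 5 of 7 to 8 of 8 over the alternatives, and the median stayed between -0.19 and -0.083. Cct6a read 10.43, 10.46 and 10.53 in the p300-deleted samples, against 10.64, 10.65 and 10.82 in the controls. Its groups did not overlap, and its difference of -0.23 (SE 0.10, limma adjusted p = 0.293) had a 95% interval from -0.46 to 0.0074. Cct3 also did not overlap, at 10.16, 10.21 and 10.11 against 10.29, 10.31 and 10.29, with a difference of -0.13 (SE 0.095, limma adjusted p = 0.521).

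The other 6 subunits overlapped between groups. They were Cct7 at -0.19, Cct2 at -0.14, Tcp1, which gives the complex its alternative name, at -0.10, Cct4 at -0.063, Cct8 at -0.058 and Cct5 at 0.011. Their SEs were 0.11 to 0.12, so each difference was within 2 SEs of 0. Among 11 tested genes that pass clients to CCT or act on tubulin after it, such as the prefoldins, 0 passed in limma, and 0 had an unadjusted p under 0.05. The median of that list was -0.025 (-0.035 to 0.042 without any other single array and 0.13 without control 2), with Pfdn6 at -0.20 (adjusted p = 0.387) and Pfdn5 at 0.27 (adjusted p = 0.475).

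None of the 4 mitochondrial chaperones passed in limma, and 0 had an unadjusted p under 0.05. Trap1, the mitochondrial HSP90, read 8.68, 8.52 and 8.67 in the p300-deleted samples, against 8.89, 8.64 and 8.71 in the controls, with overlap and a difference of -0.12 (SE 0.11). Hspa9, the mitochondrial HSP70, was at -0.12 (SE 0.15), and at -0.28 without control 2, its lowest array (unadjusted p = 0.0237, limma adjusted p = 0.20). A further probe set of it read 8.10, 8.17 and 8.25 against 8.60, 8.53 and 8.44. In that probe set all p300-deleted arrays lay below all controls, at -0.35 (SE 0.10, unadjusted p = 0.00902, limma adjusted p = 0.183). Hspd1 read 10.02, 10.03 and 10.11 against 10.13, 9.69 and 10.44. The controls spanned the whole range and gave it the widest control spread of the members (SD 0.38, n = 3), with a difference of -0.029 (SE 0.18), or -0.23 without control 2. Hspe1, its partner behind the shared promoter printed above, was at 0.015 (SE 0.13). Among 9 tested genes of mitochondrial import and proteases 0 passed in limma (1 below 0 had an unadjusted p under 0.05), and Lonp1, the matrix protease, was at -0.28 (adjusted p = 0.246). The median of that list was -0.13, but -0.00039 without control 2, -0.065 without p300-deleted 1 and 0.037 with the mean of all probe sets.

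Differences were then set beside the promoter elements. The 5 genes with the long element, Hspe1, Hspd1, Hsph1, Chordc1 and Dnajb6, had differences from -0.029 to 0.13 with a median of 0.010. The 8 tested genes with only the short element ran from -0.23 to 0.22 with a median of 0.021, and the 14 tested genes with neither in their windows from -0.37 to 0.49 with a median of -0.12. The difference between these classes was not tested, and further probe sets of Dnajb6 and Hsph1 lay at 0.68, 0.25 and 0.29. None of these 27 genes passed the test in limma (3 at an unadjusted p under 0.05, Dnaja2, Hspbp1 and Fkbp5, all with neither element).

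Many members were read by several probe sets, and these did not always tell the same story. Of 76 probe sets of the members 65 were above the limit for dim genes, and 33 of these were further probe sets of 21 genes already read by a brighter one. Of the 33, 10 in 9 genes had the sign opposite to the brightest probe set. The 10 belonged to Hspa8 (the pair below 0 given above), Cct3, Cdc37 at -0.15, Dnajb1 at 0.17, Hsp90aa1, Hspa4, Hsph1, Hspe1 at -0.089 and St13 at 0.055. An unadjusted p under 0.05 was found for 5 of the 33, in Cct3, Dnaja1 (0.34, SE 0.13), Dnajb6, Hsp90aa1 and Hspa9, with adjusted p from 0.183 to 0.300 in limma.

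The 3 further probe sets described next were lowest in control 2. A dimmer probe set of Cct3 read 7.92, 7.89 and 7.63 in the p300-deleted samples, against 7.39, 6.74 and 7.56 in the controls. Its difference was 0.59 (SE 0.20, limma adjusted p = 0.240), whereas the other Cct3 probe sets above the limit for dim genes lay between -0.13 and -0.10. A probe set of Hsp90aa1 read 9.77, 9.55 and 9.16 against 9.28, 8.39 and 9.74, and a probe set of Dnajb6 read 5.95, 6.27 and 5.52 against 5.46, 4.64 and 5.62. In each of these the array of control 2 stood below all others.

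Over all 33 further probe sets control 2 was the lowest array in 24.2%, beside 22.4% of all probe sets with 1 symbol above the limit for dim genes. The probe sets that follow were chosen after their values were seen, for a low control 2, so a smaller difference without that array follows from the choice and only its size is described. In control 2 the 3' minus 5' value was 0.59 for Gapdh, where the next highest array had 0.23, and 0.46 for actin, where the next highest array had 0.43. Without control 2 the probe set of Hsp90aa1 moved from 0.36 to -0.020, that of Hsph1 from 0.29 to 0.020, that of Hspa4 from 0.39 to 0.17, that of Dnajb6 from 0.68 to 0.38 and that of Cct3 from 0.59 to 0.34. The part of RNA quality in these values was not tested.

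**Figure D3:**
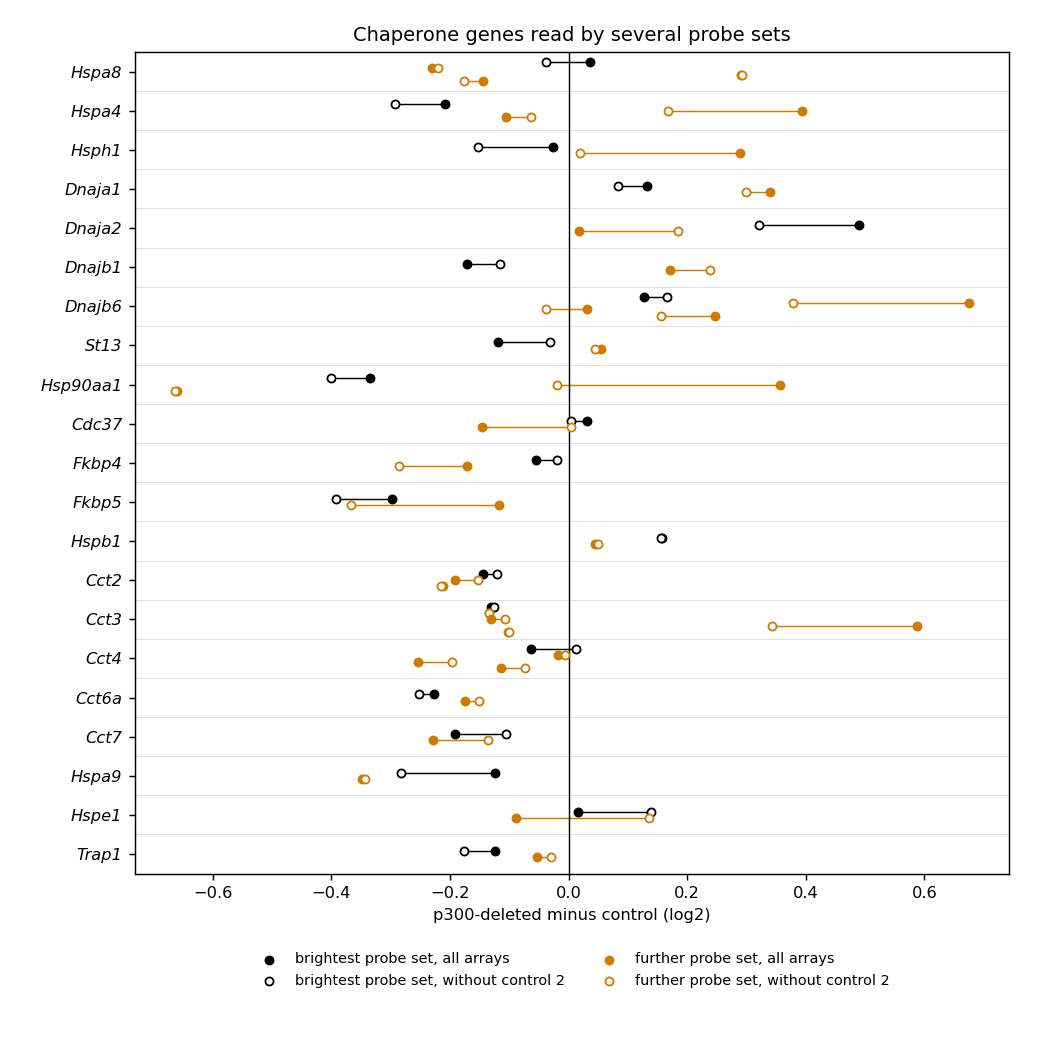
For the 21 chaperone genes with several probe sets above the limit for dim genes, filled points are differences on the log2 scale over all arrays and open points the same without control 2 (black brightest, orange further probe sets). Orange points far to the right, such as Dnajb6 at 0.68, Cct3 at 0.59 and Hsp90aa1 at 0.36, were chosen for a low control 2, so their shift to the left without it is fixed by that choice.

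Other genes of protein folding were read from lists chosen with earlier results known. Of 29 other cytosolic chaperones and cochaperones 0 passed in limma, while 1 above and 3 below 0 had an unadjusted p under 0.05, and the median was -0.019 (-0.064 to 0.013 when single arrays were left out). Nudc, an HSP90-linked factor of nuclear movement, was at -0.32 (adjusted p = 0.167), Dnajb4, a heat-inducible HSP40, at 0.33 (adjusted p = 0.236), Dnajb5 at -0.30 and Hspa2, an HSP70 best known from testis, at -0.43. Of 31 proteasome subunits 0 passed, while 1 above and 5 below 0 had an unadjusted p under 0.05, and Psmd3 was at -0.35 (adjusted p = 0.128). The median of the subunits was -0.064, but 0.0024 without control 2 and -0.0057 without p300-deleted 1, and it ran to -0.11 without p300-deleted 2 or control 3 and to -0.10 without control 1.

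Chaperones of the endoplasmic reticulum (ER) gave other values. Of 19 tested ER genes 0 passed in limma, while 3 passed without control 3 and 7 with array weights. Of the 19, 10 above and 0 below 0 had an unadjusted p under 0.05, where 8.21% of all genes did so above 0, and 17 lay above 0 with a median of 0.31. Erp44, which retains secretory proteins, was at 0.78 (SE 0.16, adjusted p = 0.0567), and the disulfide isomerases Pdia4 and Pdia3 were at 0.82 (adjusted p = 0.0912) and 0.82 (adjusted p = 0.158). List means relative to all arrays were 0.37, 0.15 and 0.036 with p300 deleted, against -0.23, -0.27 and -0.060, without overlap. Plasma cell markers, whose cells are rich in ER, were highest in the same array at 0.70, 0.20 and 0.43 against -0.49, -0.48 and -0.37, and their part in the ER values was not tested. Of the 8 tested plasma cell markers 7 lay above 0 and 5 passed, while Irf4 was at 0.19 and Prdm1 at -0.089. For the whole chaperone set, mitochondrial members included, the means were -0.055, -0.016 and -0.0031 against 0.054, -0.023 and 0.042, with overlap. The difference between the lists was not tested.

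Lists tied to handling stress and to division were read beside the chaperones. Of 15 immediate early genes, which respond within minutes to stimulation or cell handling, 1 rose, Jun, by 0.95 (SE 0.16, limma adjusted p = 0.0390), with no gene passing in 5 of the 6 fits without 1 array. The list median was 0.22, but 0.080 without control 2, 0.14 without p300-deleted 1 and 0.33 without p300-deleted 3. Btg2, an antiproliferative gene, was at 1.34 (adjusted p = 0.0810). Of 22 cell cycle genes 7 fell and the median was -0.90. The count that fell was 0 to 2 without any 1 p300-deleted array, 0 without control 1 and 7 without control 2 or control 3. The calls included Ccne1, cyclin E1, falling by 0.88 (SE 0.13, limma adjusted p = 0.0223) and Mcm3, a subunit of the replicative helicase, by 0.85 (SE 0.12, limma adjusted p = 0.0230). List means of the cell cycle genes were -0.18, -0.60 and -0.51 against 0.29, 0.10 and 0.90. Their p300-deleted arrays all lay below the controls, while those of the chaperone set overlapped.

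**Figure D4:**
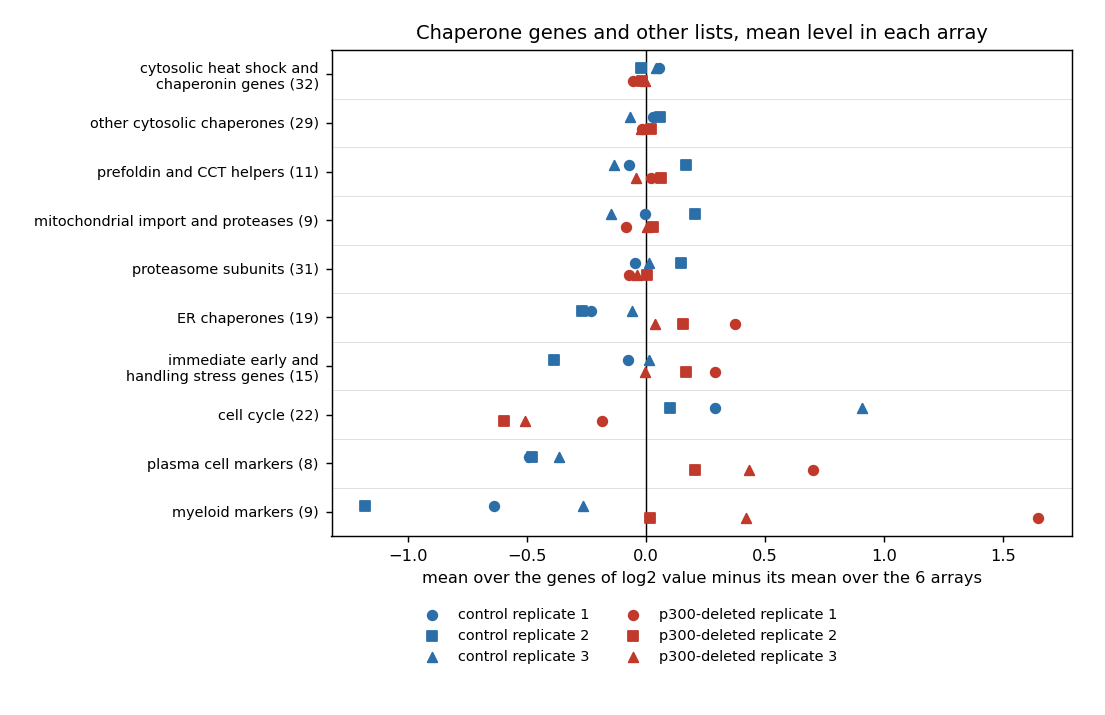
Each point is, for 1 array, the mean over the genes of a list of the log2 value minus that gene's mean over the 6 arrays (blue controls, red p300-deleted, number of tested genes in brackets). The chaperone set stays between -0.055 and 0.054 on all arrays, while ER chaperones, cell cycle genes and plasma cell and myeloid markers separate the groups.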

How the data were processed

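Expression was measured on 6 single-channel arrays. The values deposited by the authors are on a log2 scale, 1 per probe set, and the submitters' processing notes name RMA, with no version among the sources used here. RMA corrects background and equalises the distributions of the arrays, which hides a shift shared by all transcripts and compresses differences between dim probe sets. Precision is limited by having 3 arrays per group.

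Of 22690 probe sets, the platform annotation gave 1 symbol for 20393, several for 691 and none for 1606. Of those with 1 symbol, 20364 matched RefSeq (GRCm38.p6) by gene ID, with 0 symbols updated. The brightest probe set of each of 12394 genes was used, and the dimmest 30% (mean under 3.91) were left out. The remaining 8676 genes were fitted in R 4.3.3 with limma 3.58.1 (lmFit, then eBayes), with Benjamini-Hochberg adjustment and a threshold of 0.05, two-sided and without covariates. All member probe sets were fitted with all probe sets of 1 symbol. Simulated data were made from the 8676 genes, with 200 of them changed. The share of truly changed genes called was 30.9% for a log2 change of 0.5, 82.2% for 1 and 97.2% for 2. In these data 4% of calls were false. Each of the 38 genes could be named. Array values are given for genes with an unadjusted p under 0.05, for the largest difference in each role, for groups that do not overlap and for Hspa1a, Hspa1b and Hspa8, and up to 4 genes by p from other lists. Some genes of those lists were named outside that order, such as Il2ra, Ctla4, Pax5, Pdia3, Irf4 and Prdm1. The other members are given by difference. The members and lists were chosen with earlier results of these data known. The alternative without control 2 for further probe sets was chosen after seeing the data.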

Additional observations from a re-analysis of the deposited data

How the results depend on the processing

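The count of chaperone genes past the threshold was 0 under all alternatives except array weights, which called 1 (Hspbp1), and the looser rule of an unadjusted p under 0.05, which gave 4. Leaving out single arrays gave 0 each time. The count over all genes was 149, and it was 95 with the mean of all probe sets, 48 with the probe set of largest spread, 1019 with array weights, 98 with the replicate block, 15 with the 18S covariate, 399 at an adjusted p under 0.10 and 1571 at an unadjusted p under 0.05. It ran from 9 to 230 when single arrays were left out. The titles number the samples 1 to 3 in both groups. Correlations of same-numbered deviations were -0.074, 0.123 and -0.12, where differently numbered ones ran from -0.19 to 0.23. No pairing by number was seen, but with 3 arrays a group these correlations cannot exclude it. The replicate block called 0 chaperone genes.

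Of 509 values of the 32 tested genes under the alternatives, 464 kept direction and side of the threshold and 44, in 18 genes, changed sign, all with differences that did not pass. With the mean of all probe sets these were Hspa8 at -0.012, Hspa4 at 0.027, Hsph1 at 0.13, Dnajb1 at 0.00010, Cdc37 at -0.057, Cct3 at 0.010 and Hspe1 at -0.037. With the probe set of largest spread they were Hspa4 at 0.39, Hsph1 at 0.29, Dnajb1 at 0.17, St13 at 0.055, Hsp90aa1 at 0.36, Cdc37 at -0.15, Cct3 at 0.59 and Hspe1 at -0.089. With array weights they were Hspa8 at -0.026, Dnajc7 at -0.089, Bag1 at 0.026, Chordc1 at -0.051 and Cdc37 at -0.022. Median centring put Chordc1 at -0.012, Cct5 at -0.011 and Hspe1 at -0.0074, and the 18S covariate put Fkbp4 at 0.023. The cause was not tested. Leaving out single arrays gave ranges that cross 0, from -0.038 to 0.086 for Hspa8, -0.15 to 0.095 for Hsph1, -0.036 to 0.16 for Dnajc7, -0.035 to 0.026 for Bag1, -0.0072 to 0.080 for Ahsa1, -0.068 to 0.090 for Chordc1, -0.013 to 0.068 for Cdc37, -0.12 to 0.012 for Cct4, -0.048 to 0.078 for Cct5, -0.14 to 0.010 for Cct8, -0.23 to 0.15 for Hspd1 and -0.067 to 0.14 for Hspe1. Further probe sets changed sign without control 2 to 0.0036 for Cdc37, -0.039 for Dnajb6, -0.020 for Hsp90aa1 and 0.14 for Hspe1. In the simulation over all genes, with 3 arrays a group, differences of about 0.5 were often missed.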
